A study of Mus musculus with 9 samples.

Results

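The genes described here make, bind or break down hyaluronan, a long unbranched sugar polymer of the extracellular matrix. They are the synthase genes Has1, Has2 and Has3, the matrix binding protein genes Vcan and Tnfaip6, the receptor gene Cd44, the hyaluronidase genes Hyal1 and Hyal2, and Cemip, whose product is needed for the depolymerization of hyaluronan. They were chosen by gene symbol and not by their values, though with earlier results of these data known. All 9 were found among the 54532 genes of the deposited table. The data are RNA-seq counts of the mouse lambdoidal junction, where the facial prominences come together and fuse into the upper lip and primary palate. Embryos of the C57BL/6J strain, with no mutation or treatment named in the labels, were collected on embryonic day 10.5 (E10.5) or 1 or 2 days later (E11.5, E12.5), with 3 libraries per stage. Each library was made from the pooled tissue of several embryos, so the p-values measure the spread between pools. The tissue is a mixture of surface ectoderm, mesenchyme, vessels and blood cells, and in such bulk samples fewer cells of a type and less RNA per cell cannot be told apart.

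Hyaluronan synthases are enzymes of the plasma membrane that join UDP-glucuronic acid and UDP-N-acetylglucosamine and push the growing chain out of the cell. Outside the cell the chain binds water and opens space between cells, and large proteoglycans such as versican, the product of Vcan, hang on it as on a backbone. In the facial prominences and the palatal shelves, hyaluronan is known as a main component of the loose matrix in which the mesenchyme grows. The chain is taken down by hyaluronidases and by depolymerization at the cell surface, and cells sense it through receptors such as CD44.

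The proximal promoters of Vcan, Tnfaip6, Cd44 and Cemip are shown because these genes differed between stages. They are the bases before the RefSeq start of the gene (GRCm38.p6), 5′ to 3′ on the strand of the gene, without bases that lie inside the gene as the deposited table has it. Capitals mark matches on either strand to the TATA box TATAAA, the CCAAT box, the GC box GGGCGG, the AP-1 core TGANTCA and the CREB element TGACGTCA, and no matches of different motifs overlapped in these windows. A RefSeq promoter entry was matched for 7 of the 9 genes by symbol. Has2 and Has3 had none, so Has3 is not shown although it passed as well.
Vcan, chr13:89742513-89742762, minus strand: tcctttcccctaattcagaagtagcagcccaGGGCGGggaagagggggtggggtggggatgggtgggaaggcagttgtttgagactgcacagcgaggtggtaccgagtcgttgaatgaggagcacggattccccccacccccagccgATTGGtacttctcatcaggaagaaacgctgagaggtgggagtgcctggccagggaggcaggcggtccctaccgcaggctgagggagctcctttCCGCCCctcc
Tnfaip6, chr2:52037863-52038008, plus strand: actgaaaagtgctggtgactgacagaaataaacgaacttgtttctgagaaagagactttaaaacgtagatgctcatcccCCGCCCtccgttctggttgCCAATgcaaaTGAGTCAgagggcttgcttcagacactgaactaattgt
Cd44, chr2:102901666-102901915, minus strand: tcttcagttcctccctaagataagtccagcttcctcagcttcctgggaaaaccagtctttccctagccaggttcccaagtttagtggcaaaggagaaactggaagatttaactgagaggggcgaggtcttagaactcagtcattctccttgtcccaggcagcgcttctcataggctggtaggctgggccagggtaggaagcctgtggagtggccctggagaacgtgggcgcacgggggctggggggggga
Cemip, chr7:84086506-84086755, minus strand: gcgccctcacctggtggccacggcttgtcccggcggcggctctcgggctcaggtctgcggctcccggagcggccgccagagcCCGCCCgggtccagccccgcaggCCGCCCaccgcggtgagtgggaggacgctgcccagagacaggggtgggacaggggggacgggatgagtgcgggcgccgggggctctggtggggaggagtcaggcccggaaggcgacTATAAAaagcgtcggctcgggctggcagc

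The matches differed among these windows. The Cemip window held a TATAAA whose first base lay at −29 from the RefSeq start, and its GC content was 75.2%. TATAAA was found in 12.4% of the 32841 mouse promoter windows of 250 bases. The Tnfaip6 window had the lowest GC content of the 7 matched genes, 44.4% over its full 250 bases. It held a match to the AP-1 core whose first base lay at −142, and TGANTCA was found in 6.75% of all windows. It also held the CCAAT box at −152 and, inverted and inside the gene as deposited, at −81. CCAAT was found in 33.9% of all windows, and the Vcan window held it inverted, as ATTGG, at −103. The GC box was found in 32.7% of all windows and in those of Vcan (−219 and −10), Tnfaip6 (−171) and Cemip (−168 and −145). Among the matched genes not shown, Hyal1 and Hyal2 also held the GC box, and Hyal1 and Has1 the CCAAT box. The CREB element was found in 1.55% of all windows, and among the 7 genes only in that of Has1, at −83. The Cd44 window held none of these letters.

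The total count was 16581009 to 20836804 per library. Expression levels are given as CPM, counts scaled to a library of fixed size, on library sizes scaled by the trimmed mean of M values (TMM), as mean ± SD with n = 3. E10.5 replicate 3 stood apart from the other E10.5 libraries. Over 16375 genes, the SD of its log2 difference from replicates 1 and 2 was 0.711 and 0.703, against 0.373 to 0.591 for the other 7 replicate pairs, and genes of higher GC content were lower in it. All libraries were kept, and calls that change without it are given beside the genes. Of 7 epithelial and 6 facial mesenchymal marker genes, all were found above 3 counts. By stage, in order of age, the summed level of the mesenchymal markers was 847 to 1385, 2226 to 2470 and 2714 to 3321 CPM. That of the epithelial markers was 385 to 697, 398 to 425 and 637 to 719 CPM. The part of cell type proportions in the results on the hyaluronan genes was not tested.

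Stages were compared by the quasi-likelihood test of edgeR, and p-values were adjusted (Benjamini-Hochberg) over all genes tested. A gene was called differentially expressed (a DEG) when its adjusted p was 0.05 or less and its level changed by a log2 fold change of 1 or more in size. Has1 had too few counts to be tested, so 8 of the 9 hyaluronan genes were tested in each comparison. In E11.5 vs. E10.5, 1 of the 8 was a DEG (Cemip, upregulated), where 6.07% of all 15708 genes tested were DEGs. In E12.5 vs. E11.5, 3 of the 8 were DEGs (Has3 and Cd44 upregulated, Cemip downregulated), against 5.10% of all 15808 genes tested. In E12.5 vs. E10.5, 2 of the 8 were DEGs (Has3 and Cd44, upregulated), against 15.0% of all 15899 genes tested. The median log2 fold change of the 8 genes was 0.31, −0.02 and 0.29 in these 3 comparisons, whose order is kept below, and that of all genes tested was −0.03, 0.02 and −0.01. The 2 stages did not overlap for 4, 3 and 3 of the 8 genes, against 36.7%, 35.3% and 42.4% of all genes tested.

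**Figure D1:**
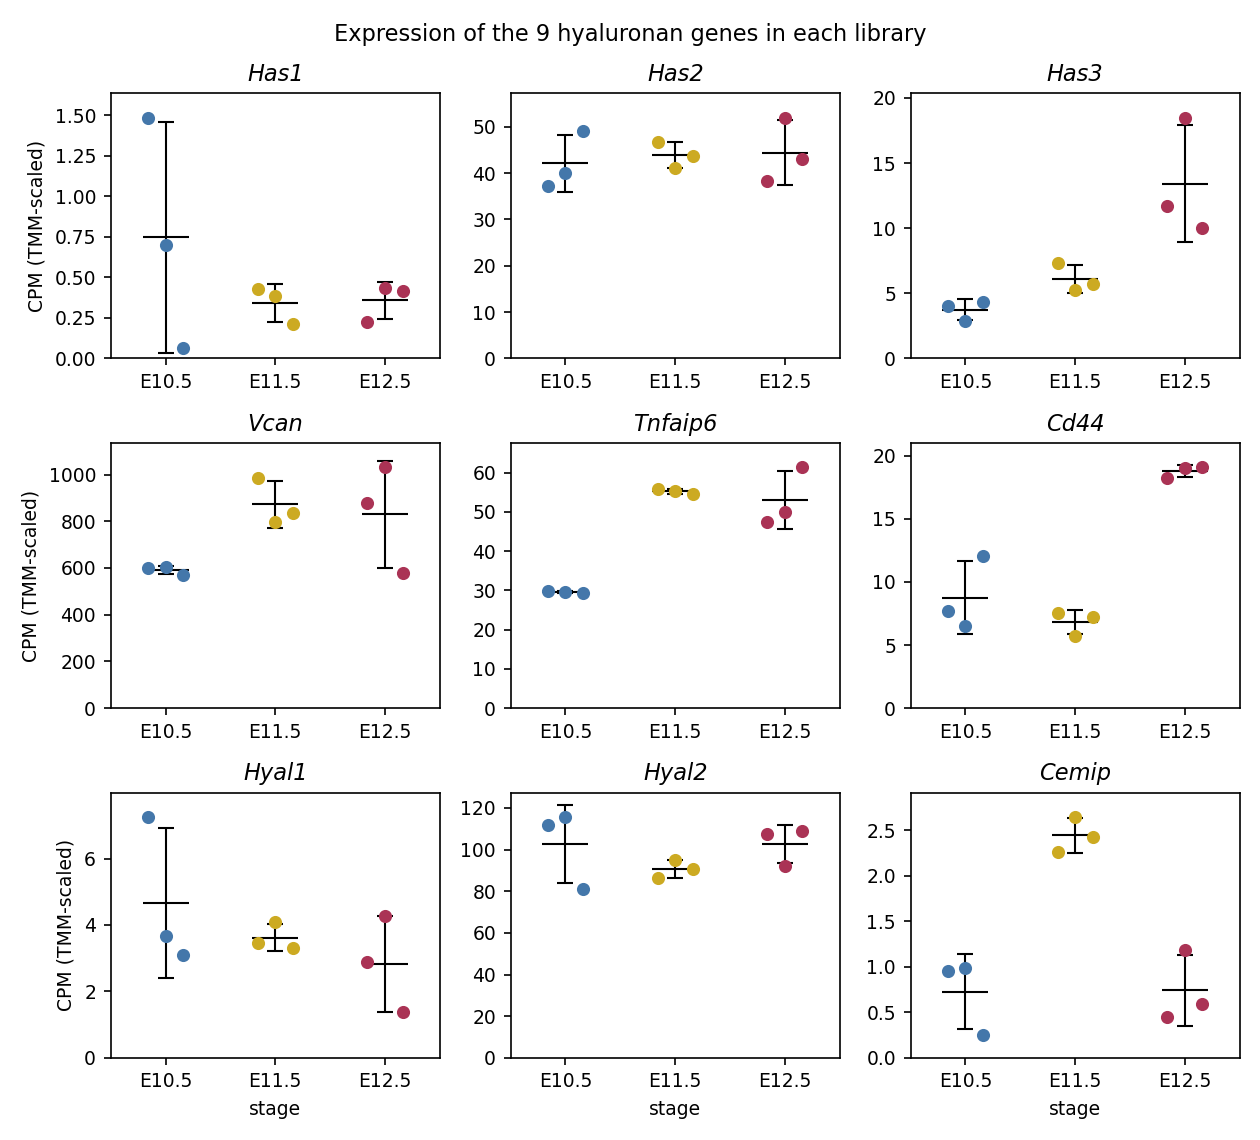
Expression of the 9 hyaluronan genes in CPM (TMM-scaled, linear axes from 0, each panel with its own scale) in the 3 libraries of each stage, with replicates 1 to 3 from left to right. Long horizontal lines are the means and the bars ± 1 SD (n = 3). Tnfaip6 and Vcan stepped up at E11.5, Cd44 at E12.5, Has3 was highest at E12.5, and Cemip was high only in the E11.5 libraries.

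Has2 encodes the main hyaluronan synthase of the mouse embryo and is essential for formation of the heart. The gene (ENSMUSG00000022367) lies on the minus strand at chr15:56665627-56694539 (GRCm38). Its level was 37.3, 39.9 and 49.1 CPM in the E10.5 libraries, 46.6, 41.1 and 43.7 CPM at E11.5, and 38.2, 52.0 and 43.1 CPM at E12.5. The libraries of the 3 stages overlapped. The log2 fold change was 0.06 in E11.5 vs. E10.5 (95% interval −0.25 to 0.37), 0.02 in E12.5 vs. E11.5 (−0.30 to 0.33) and 0.08 in E12.5 vs. E10.5 (−0.34 to 0.51). The edgeR adjusted p was 0.811, 0.953 and 0.788. The intervals for Has2 thus left out a change of the size that the DEG threshold asks for, in either direction. An antisense gene, Has2os, covers 4.30% of the exon bases of Has2 on the opposite strand, and it had only 7 to 32 counts per library.

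Has3 encodes a synthase known from epithelia such as the epidermis. The gene (ENSMUSG00000031910) lies on the plus strand at chr8:106870242-106884566. Its level was 4.04, 2.84 and 4.34 CPM at E10.5, 7.32, 5.29 and 5.69 CPM at E11.5, and 11.7, 18.5 and 10.02 CPM at E12.5. Every E11.5 library lay above every E10.5 library, and every E12.5 library lay above every E11.5 library, with replicate 2 of E12.5 the highest. In E12.5 vs. E10.5, Has3 was upregulated 3.61-fold (log2 fold change 1.85 ± 0.30 SE, edgeR adjusted p = 0.00129). In E12.5 vs. E11.5 it was upregulated 2.20-fold (1.14 ± 0.24 SE, adjusted p = 0.0128). In E11.5 vs. E10.5 the log2 fold change of 0.71 ± 0.24 SE did not pass the test (edgeR adjusted p = 0.0970).

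The later rise of Has3 depended on single libraries. In E12.5 vs. E11.5 the log2 fold change was 0.82 without E12.5 replicate 2, below the fold-change threshold. The edgeR adjusted p rose to 0.0659 or 0.0581 when replicate 2 or 3 of E11.5 was left out, and to 0.0503 when replicate 1 of E12.5 was. The E12.5 vs. E10.5 call was kept without any single library (log2 fold change 1.55 to 2.02 over all 15 alternatives). Without E10.5 replicate 3, the E11.5 vs. E10.5 value was 0.83 with an adjusted p of 0.0130. Chtf8, on the opposite strand, covers 5.52% of the exon bases of Has3. It had 3409 to 6264 counts per library, against 49 to 343 for Has3. Whether reads of Chtf8 entered the counts of Has3 was not tested. The log2 fold change of Chtf8 was 0.03, −0.48 and −0.44 in the 3 comparisons. Has3 and the summed epithelial markers both stood highest at E12.5, and 2 of the 7 epithelial markers were upregulated DEGs in E12.5 vs. E11.5. In E12.5 vs. E10.5, 2 of them were upregulated and 1 downregulated, and in E11.5 vs. E10.5, 1 was upregulated and 1 downregulated. The epithelial sum of the E10.5 libraries ranged up to 697 CPM, within the E12.5 range, while Has3 was lowest at E10.5.

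Has1 encodes the remaining synthase (ENSMUSG00000003665, chr17:17843323-17855205, minus strand). It had 25, 12 and 1 counts in the E10.5 libraries, 8, 8 and 4 at E11.5, and 4, 8 and 7 at E12.5, so its level was under 1.5 CPM everywhere. The 1 count stood in E10.5 replicate 3, the library that stands apart. Without that library Has1 passed the low-count filter and was called lower in E11.5 vs. E10.5 (log2 fold change −1.64, edgeR adjusted p = 0.0262). With all libraries and no filter on low counts the value was −1.10 with an adjusted p of 0.439.

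Within each library, the share of the synthase transcripts that came from each gene was taken on the deposited FPKM values, which are divided by gene length. Has2 made up 90.1%, 94.0% and 94.4% of the summed FPKM of Has1, Has2 and Has3 at E10.5, 89.9%, 91.4% and 91.7% at E11.5, and 82.7%, 80.4% and 85.9% at E12.5. All E12.5 libraries lay below all libraries of the earlier stages, and those of E10.5 and E11.5 overlapped. The mean share was 92.8 ± 2.34%, 91.0 ± 0.970% and 83.0 ± 2.79% (SD, n = 3). The 3 stages differed (exact permutation test over all 1680 assignments of the 9 libraries to stages, p = 0.0107, and 0.0214 with Benjamini-Hochberg adjustment over 2 ratios, where 0.00357 is the smallest p these assignments allow). From E10.5 to E12.5 the Has2 share dropped by 9.83 percentage points. The Has3 share was 5.49 ± 1.02%, 8.37 ± 0.863% and 16.4 ± 2.89%, and that of Has1 1.67 ± 1.63%, 0.665 ± 0.217% and 0.621 ± 0.162%. The level of Has2 itself passed no test between stages, while that of Has3 did.

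**Figure D2:**
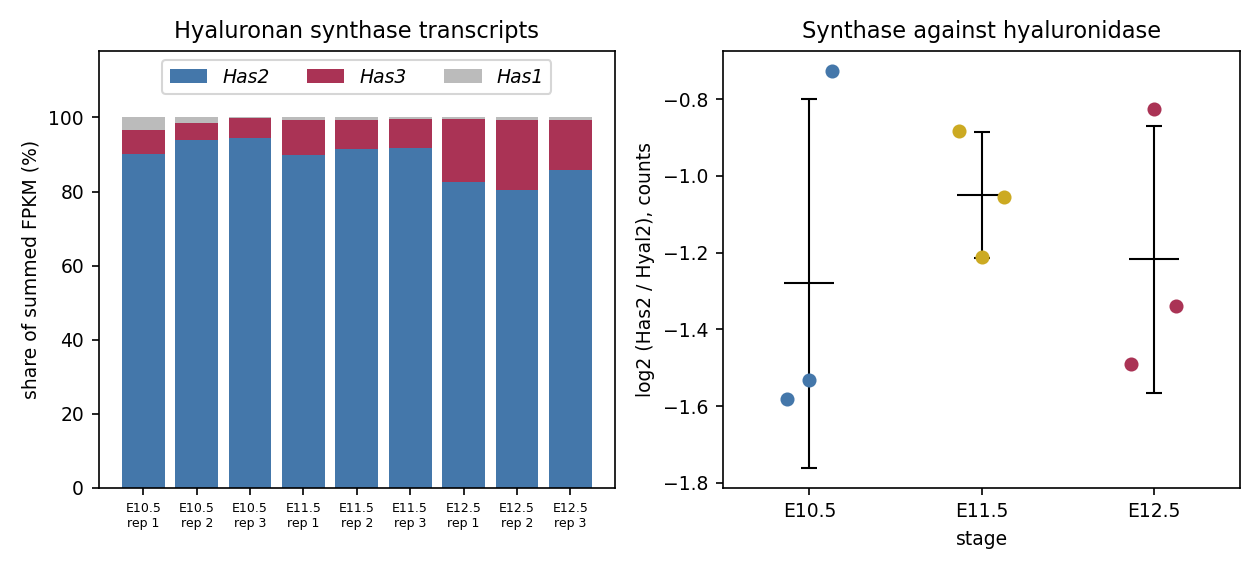
Left, share of the summed FPKM of Has1, Has2 and Has3 in each of the 9 libraries, in percent. Right, log2 ratio of the Has2 to the Hyal2 count in each library, with the mean and ± 1 SD of each stage (n = 3, axis not from 0). The Has3 part of the bars was 13.3% to 19.0% at E12.5 and 4.45% to 6.49% at E10.5, while the Has2 to Hyal2 ratios of the stages overlapped.

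Vcan encodes versican, a large chondroitin sulfate proteoglycan that binds hyaluronan through its link domain and is known in the loose matrix of embryonic mesenchyme. The gene (ENSMUSG00000021614) lies on the minus strand at chr13:89655312-89742509. Its level was 599.8, 604.4 and 569.4 CPM at E10.5, 984, 798 and 834 CPM at E11.5, and 879, 1031 and 580 CPM at E12.5. The E11.5 libraries lay above the E10.5 libraries. The E12.5 libraries were spread widely, and their replicate 3 lay within the E10.5 range. In E11.5 vs. E10.5, Vcan was 1.48-fold higher (log2 fold change 0.56 ± 0.11 SE, edgeR adjusted p = 0.0179), which is below the fold-change threshold. The log2 fold change was −0.08 ± 0.19 SE in E12.5 vs. E11.5 (adjusted p = 0.820) and 0.50 ± 0.22 SE in E12.5 vs. E10.5 (edgeR adjusted p = 0.124).

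The E11.5 vs. E10.5 difference of Vcan kept its direction in all 15 alternatives (0.47 to 0.63), but not its adjusted p. That was 0.0501 and 0.0569 when replicate 1 or 2 of E10.5 was left out, 0.0807 and 0.0831 when replicate 1 or 3 of E11.5 was, 0.0775 when all 9 libraries were fitted together, and 0.0525 with the replicate number as a block. In E12.5 vs. E10.5 the log2 fold change was 0.70 without E12.5 replicate 3 (edgeR adjusted p = 0.0275). The mesenchymal marker sum moved with Vcan between E10.5 and E11.5, when 3 of the 6 mesenchymal markers were upregulated DEGs. It was higher again at E12.5 (2714 to 3321 CPM, against 2226 to 2470 CPM at E11.5). In that comparison the log2 fold change of Vcan was −0.08. The part of cell type proportions in the level of Vcan was not tested.

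Tnfaip6 encodes TSG-6, a secreted protein that binds hyaluronan and transfers the heavy chains of inter-alpha-inhibitor onto it. The gene (ENSMUSG00000053475) lies on the plus strand at chr2:52038009-52056686. Its level was 29.9, 29.7 and 29.4 CPM at E10.5, 55.8, 55.3 and 54.5 CPM at E11.5, and 47.5, 50.1 and 61.4 CPM at E12.5. Each of the later stages lay above all E10.5 libraries, and the E11.5 values fell inside the E12.5 range. The SD was 0.267 CPM at E10.5 and 0.669 CPM at E11.5, which is less than 3% of the level. At 474 to 511 and 1035 to 1150 counts, counting error alone would be expected to give a larger SD. The close agreement is therefore no measure of the spread between pools. Tnfaip6 was 1.87-fold higher in E11.5 vs. E10.5 (log2 fold change 0.90 ± 0.096 SE, edgeR adjusted p = 0.00179) and 1.80-fold higher in E12.5 vs. E10.5 (0.85 ± 0.18 SE, adjusted p = 0.00561). Both values stayed short of the fold-change threshold, so Tnfaip6 was no DEG. Over 15 alternatives the first of these values was 0.88 to 0.92 and the latter 0.72 to 0.92, with adjusted p of at most 0.0199 and 0.0274. In E12.5 vs. E11.5 the log2 fold change was −0.07 ± 0.13 SE (edgeR adjusted p = 0.769).

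Without the fold-change threshold, 3 of the 8 tested genes passed in E11.5 vs. E10.5 (Vcan, Tnfaip6 and Cemip, all higher), against 11.8% of all genes tested.

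Cd44 encodes the main cell surface receptor of hyaluronan. The gene (ENSMUSG00000005087) lies on the minus strand at chr2:102811141-102901665. Its level was 7.73, 6.502 and 12.02 CPM at E10.5, 7.53, 5.72 and 7.22 CPM at E11.5, and 18.3, 19.0 and 19.1 CPM at E12.5. The E12.5 libraries lay close together and above all others, and those of E10.5 and E11.5 overlapped, with E10.5 replicate 3 the highest of them. Cd44 was upregulated 2.75-fold in E12.5 vs. E11.5 (log2 fold change 1.46 ± 0.16 SE, edgeR adjusted p = 2.96e-04) and 2.16-fold in E12.5 vs. E10.5 (1.11 ± 0.25 SE, adjusted p = 0.00888). In E11.5 vs. E10.5 the log2 fold change was −0.36 ± 0.26 SE (edgeR adjusted p = 0.411).

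The E12.5 vs. E11.5 call of Cd44 was kept in all 15 alternatives (1.33 to 1.52). In E12.5 vs. E10.5 the value was 1.41 without E10.5 replicate 3, and 0.93 without E10.5 replicate 2, below the fold-change threshold with an edgeR adjusted p of 0.0369. CD44 is also carried by leukocytes and epithelial cells. The summed level of 6 macrophage markers was 27.5 to 31.2 CPM at E11.5 and 33.4 to 34.9 CPM at E12.5, and none of them was a DEG in that comparison. Of the 7 epithelial markers, 2 were upregulated there.

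Hyal2 encodes a hyaluronidase anchored to the cell surface. The gene (ENSMUSG00000010047) lies on the plus strand at chr9:107567945-107572779. Its level was 112, 116 and 81.3 CPM at E10.5, 86.1, 95.1 and 90.9 CPM at E11.5, and 107, 92.1 and 109 CPM at E12.5, and the stages overlapped. The log2 fold change was −0.18 in E11.5 vs. E10.5 (95% interval −0.51 to 0.15), 0.17 in E12.5 vs. E11.5 (−0.09 to 0.44) and 0.01 in E12.5 vs. E10.5 (−0.40 to 0.42), with edgeR adjusted p of 0.461, 0.352 and 0.981. The lowest value was that of E10.5 replicate 3. Without this library Hyal2 was lower in E11.5 vs. E10.5 by a log2 fold change of −0.32 (edgeR adjusted p = 0.00310), which is still short of the fold-change threshold.

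Hyal1 encodes a lysosomal hyaluronidase. The gene (ENSMUSG00000010051) lies on the plus strand at chr9:107576927-107581710, next to Hyal2. Its level was 7.25, 3.66 and 3.10 CPM at E10.5, 3.44, 4.09 and 3.32 CPM at E11.5, and 2.87, 4.26 and 1.37 CPM at E12.5. The stages overlapped, and E10.5 replicate 1 was the highest library. The log2 fold change was −0.36 ± 0.33 SE, −0.35 ± 0.34 SE and −0.70 ± 0.44 SE in the 3 comparisons (edgeR adjusted p = 0.522, 0.521 and 0.271). The counts of Hyal1 are uncertain, because 51.9% of its exon bases also belong to other genes. Naa80 shares 50.8% and Hyal3 4.21% of them on the same strand.

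Cemip encodes a secreted protein that depolymerizes hyaluronan together with the cell surface. The gene (ENSMUSG00000052353) lies on the minus strand at chr7:83932857-84086502. It had 16, 17 and 4 counts in the E10.5 libraries, 42, 55 and 46 at E11.5, and 8, 22 and 10 at E12.5. These counts equal 0.728 ± 0.417, 2.44 ± 0.193 and 0.744 ± 0.389 CPM. The E11.5 libraries lay above all others, and those of E10.5 and E12.5 overlapped. Cemip was upregulated 3.32-fold in E11.5 vs. E10.5 (log2 fold change 1.73 ± 0.43 SE, edgeR adjusted p = 0.0398). It was downregulated in E12.5 vs. E11.5, where it fell by 1.70 ± 0.37 SE on the log2 scale (edgeR adjusted p = 0.0141), which is 3.25-fold. In E12.5 vs. E10.5 the log2 fold change was 0.04 (95% interval −1.23 to 1.31).

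In both comparisons with a call, Cemip passed the low-count filter through the E11.5 libraries, the stage in which it was high. With these low counts the calls of Cemip rested on single libraries. In E11.5 vs. E10.5 the edgeR adjusted p was 0.0600 or 0.0668 when replicate 1 or 2 of E10.5 was left out, and 0.131, 0.125 or 0.138 when replicate 1, 2 or 3 of E11.5 was. Without E10.5 replicate 3, the library with 4 counts, the log2 fold change was 1.33 and the adjusted p 0.00597. For the later fall it was 0.0583 when replicate 2 of E11.5 was left out and 0.0707 when replicate 1 of E12.5 was. The directions were kept in all alternatives that tested the gene, with 1.33 to 2.01 in E11.5 vs. E10.5 and −2.22 to −1.44 in E12.5 vs. E11.5.

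**Figure D3:**
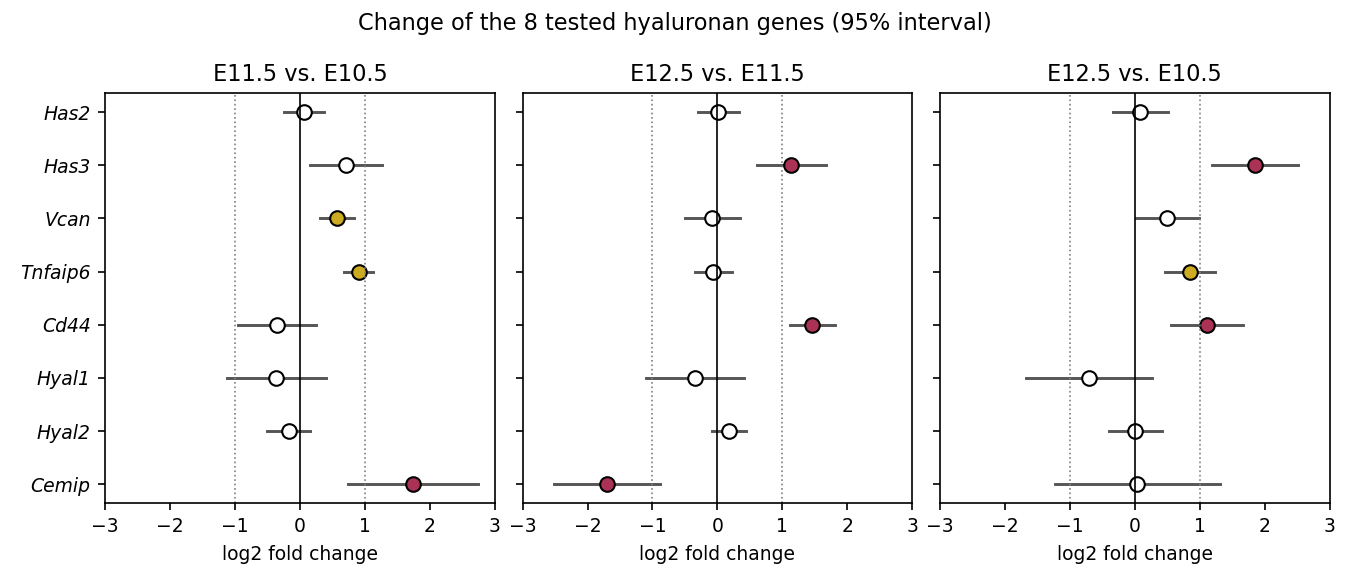
Log2 fold change with its 95% interval (edgeR, n = 3 libraries per stage) of the 8 tested hyaluronan genes in the 3 comparisons. Dotted lines mark the fold-change threshold, red points are DEGs, yellow points passed the adjusted p-value only, and white points passed neither. Cemip lies to the right in E11.5 vs. E10.5 and to the left in E12.5 vs. E11.5, while the intervals of Has2 stay between the dotted lines in all 3 panels.

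In a test of the 3 stages together, 4 of the 8 genes varied (edgeR adjusted p = 6.83e-04 for Tnfaip6, 6.99e-04 for Has3, 7.62e-04 for Cd44 and 0.0132 for Cemip), against 28.3% of all 16375 genes tested. The value for Vcan was 0.0764. Cemip had 0.0539 without E11.5 replicate 2. Without E10.5 replicate 3, all 9 genes could be tested, and Has1 varied as well. Whether the change from E11.5 to E12.5 differed from that from E10.5 to E11.5 was tested as a contrast of its own. None of the 8 genes passed in edgeR with adjustment, 3 had an unadjusted p below 0.05, and 1.18% of all genes passed. The log2 difference of the 2 changes was −3.43 ± 0.75 SE for Cemip (adjusted p = 0.0507), 1.82 ± 0.40 SE for Cd44 (adjusted p = 0.0521) and −0.96 ± 0.23 SE for Tnfaip6 (edgeR adjusted p = 0.0698). Without E10.5 replicate 3 all of these passed, with adjusted p of 0.0234, 0.0210 and 0.0335. For Has3, which stood higher in each later stage, the difference was 0.43 ± 0.46 SE (edgeR adjusted p = 0.760).

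To set a synthase gene beside a hyaluronidase gene inside each library, the log2 ratio of the Has2 to the Hyal2 count (each plus 0.5) was taken. This ratio covers the RNA of these 2 genes only, and the making and breakdown of hyaluronan were not measured. It was −1.58, −1.53 and −0.73 at E10.5, −0.88, −1.21 and −1.06 at E11.5, and −1.49, −0.83 and −1.34 at E12.5. The stages overlapped, and the highest value was that of E10.5 replicate 3. The 3 stages did not differ beyond the spread of the libraries (exact permutation test, p = 0.714, also 0.714 adjusted over 2 ratios). Without E10.5 replicate 3, the mean of E12.5 lay 0.34 above that of E10.5 (exact permutation test over the 3 stages, p = 0.168). Has2 and Hyal2 differ in GC content (40.6% and 55.2%), and the ratio was not corrected for it. The part of GC content in the ratio was not tested.

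Levels of different genes were compared per gene length, as FPKM. Vcan was the highest of the 9 genes at each stage, with 40.5 ± 1.27, 59.7 ± 6.75 and 56.5 ± 15.6 FPKM. Hyal2 (30.9, 27.3 and 30.7 FPKM) and Tnfaip6 (17.2, 31.97 and 30.5 FPKM) came next. Hyal2 was above Tnfaip6 in all libraries at E10.5 and below it in all libraries at E11.5, and their libraries overlapped at E12.5. Has2 followed with 9.84, 10.2 and 10.3 FPKM, and its libraries overlapped with neither neighbour at any stage. Cd44 (1.28, 0.997 and 2.73 FPKM), Hyal1 (1.22, 0.948 and 0.739 FPKM) and Has3 (0.580, 0.946 and 2.07 FPKM) formed the next group. In it, Cd44 and Hyal1 overlapped at E10.5, all 3 genes at E11.5, and Cd44 and Has3 at E12.5. The place of Hyal1 in this order is uncertain, because 51.9% of its exon bases also belong to other genes. Has1 (0.163, 0.0749 and 0.0781 FPKM) and Cemip (0.0589, 0.198 and 0.0600 FPKM) were lowest, and they overlapped at E10.5 and E12.5 but not at E11.5, where Cemip was higher.

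For the 5 hyaluronan genes with a mean of at least 10 CPM, the 2 genes with the most similar profile over the 9 libraries were sought among 16375 genes. The measure was the root mean square (RMS) difference in log2 CPM after each gene was centred on its own mean. For Tnfaip6 they were Laptm4b (RMS 0.108) and Alox12 (0.111), where Tnfaip6 itself had an RMS of 0.417 around its mean. For Cd44 they were Clstn2 (0.177) and H60b (0.208), against 0.668 for Cd44 itself. For Vcan they were 2610507I01Rik (0.0739) and Atf7 (0.0930), against 0.324. Has2 and Hyal2 varied little (0.154 and 0.170), and the genes nearest to them, Pip4k2a (0.0539) for Has2 and Dda1 (0.0469) and Ankrd54 (0.0537) for Hyal2, share that flat profile.

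A list of 43 other genes of hyaluronan metabolism was examined in the same fits. In E11.5 vs. E10.5, 27 could be tested, of which 3 rose and 2 fell as DEGs, where 6.07% of all genes tested were DEGs. Of the 28 tested in E12.5 vs. E11.5, 3 rose and none fell, against 5.10% of all genes. Of the 28 tested over the whole span, 4 rose and 2 fell, against 15.0% of all genes. The median log2 fold change of the tested genes was −0.04, −0.02 and 0.13. The enzymes that make the UDP-sugars for the synthases held no DEG among the 7 tested in any comparison by edgeR or by DESeq2, although 2, 3 and 3 of them had an unadjusted p below 0.05 in edgeR. Among them Ugdh, which makes UDP-glucuronic acid, was at 83.7 ± 14.2, 110 ± 1.204 and 143 ± 18.3 CPM, and its log2 fold change in E12.5 vs. E10.5 was 0.78 (edgeR adjusted p = 0.0121), below the fold-change threshold. Gfpt2, of the same group, went the other way, at 46.5 ± 5.30, 35.3 ± 5.16 and 25.3 ± 2.23 CPM. Its log2 fold change in E12.5 vs. E10.5 was −0.87 (edgeR adjusted p = 0.00544), also short of the threshold in size.

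Other degrading enzymes and receptors held no DEG either. Hyal4, Hyal5, Hyal6 and Spam1, further genes of the hyaluronidase family, had 0 counts in all 9 libraries, where up to 3 counts per library are allowed by a count of 0. Cemip2, a transmembrane relative of Cemip that the table lists as Tmem2, was far more abundant than Cemip, at 23.8 ± 2.27, 21.9 ± 1.12 and 14.5 ± 4.29 FPKM. Its log2 fold change was −0.70 in E12.5 vs. E10.5 (edgeR adjusted p = 0.0374), below the fold-change threshold. Lyve1, the receptor of lymphatic vessels, had 0 to 8 counts per library. Hmmr, which encodes a hyaluronan binding protein of the mitotic spindle, was at 115 ± 53.3, 95.01 ± 2.18 and 70.4 ± 12.1 CPM and was not a DEG.

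The genes that did pass belonged to link proteins, lecticans, cross-linking proteins and proteases. Acan encodes aggrecan, the lectican of cartilage. By stage, it had 2 to 4, 11 to 18 and 134 to 254 counts per library, with log2 fold changes of 2.001 ± 0.48 SE in E11.5 vs. E10.5 (edgeR adjusted p = 0.0329) and 3.82 ± 0.29 SE in E12.5 vs. E11.5 (adjusted p = 4.44e-05). With so few counts at E10.5, Acan passed the low-count filter through the later stage. Its E11.5 vs. E10.5 call was absent by DESeq2, with the replicate number as a block, without E10.5 replicate 1 or 2, and without any of the E11.5 replicates. Of the 5 cartilage markers, 4 were tested, and Acan was the only DEG among them in each comparison. Their summed level was 622 to 1058, 477 to 607 and 503 to 677 CPM by stage. Ncan, the lectican of the nervous system, was downregulated in E11.5 vs. E10.5 (8.86 ± 0.433 to 3.68 ± 0.714 CPM, log2 fold change −1.26, edgeR adjusted p = 0.00736). Hapln1, whose link protein fastens lecticans to hyaluronan, was downregulated there too (56.2 ± 21.1 to 23.3 ± 3.88 CPM, −1.27, adjusted p = 0.0186), but not without E10.5 replicate 3, the library that stands apart. In the same comparison all 6 forebrain and eye field markers were downregulated, and their sum was 169 to 244 CPM in the younger and 48.3 to 54.0 CPM in the older libraries. Their part in the values of Ncan and Hapln1 was not tested.

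Hapln3, a link protein gene, was upregulated in E12.5 vs. E11.5 (1.57 ± 0.245 to 3.96 ± 0.625 CPM, log2 fold change 1.33, edgeR adjusted p = 0.00791), a call that was lost without E11.5 replicate 2. So was Ptx3, whose pentraxin cross-links hyaluronan together with the product of Tnfaip6 and the inter-alpha-inhibitor heavy chains. It went from 17.8 ± 1.17 to 65.4 ± 10.9 CPM (1.87 ± 0.15 SE, edgeR adjusted p = 5.38e-05), while Tnfaip6 did not pass the test in this comparison. The heavy chain genes Itih1, Itih2, Itih3 and Itih4 had at most 7 counts in any library, while Itih5 was at 17.96 ± 6.33, 17.3 ± 1.68 and 11.8 ± 4.13 CPM and was not a DEG. Of the 6 proteases that cleave versican, Adamts5 (4.08 ± 0.813 to 11.6 ± 2.23 CPM, log2 fold change 1.51, edgeR adjusted p = 0.00640) and Adamts20 (11.3 ± 4.16 to 31.4 ± 4.20 CPM, 1.47, adjusted p = 0.0111) rose in E11.5 vs. E10.5. This is the comparison in which Vcan itself was 1.48-fold higher. In E12.5 vs. E10.5 the DEGs were Acan, Ptx3, Adamts5 and Adamts20 (upregulated) and Hapln1 and Ncan (downregulated), and the call of Hapln1 was again lost without E10.5 replicate 3. Of the 5 calls of E11.5 vs. E10.5, only Adamts5 was left without E11.5 replicate 1, and only Ncan and Adamts5 without E11.5 replicate 3. When any other single library was left out, 4 of the 5 were called, and the missing gene was Acan or, without E10.5 replicate 3, Hapln1.

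**Figure D4:**
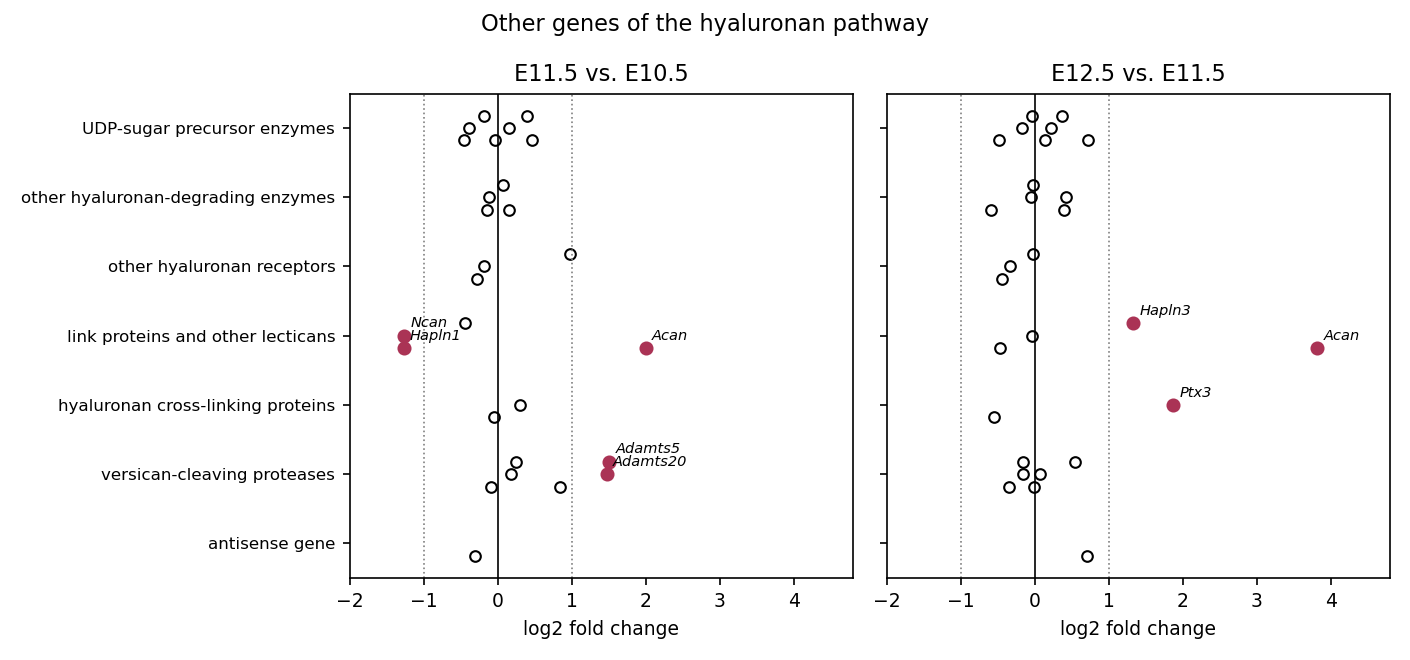
Log2 fold change (edgeR) of the tested genes among 43 other hyaluronan genes, 1 point per gene, by group, in E11.5 vs. E10.5 (left) and E12.5 vs. E11.5 (right). Dotted lines mark the fold-change threshold, and filled, named points are DEGs. The DEGs lie in the groups of link proteins and lecticans, cross-linking proteins and versican-cleaving proteases, and the UDP-sugar enzymes stay between the dotted lines.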

How the data were processed

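The authors mapped the reads of each library to GRCm38/mm10 with HISAT2 2.0.5 and deposited whole-number counts per gene from featureCounts, without normalization, in a table of 54532 genes. Whether reads were counted by strand is not given in the sources used here. The deposited FPKM values are the counts divided by gene length and library scale. They were used to compare levels between genes and for the shares of the synthase transcripts. The authors also deposited group means, log2 fold changes and p-values of their own DESeq2 runs, which were not used.

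The 6 libraries of each comparison were fitted with edgeR 4.0.16 (filterByExpr, TMM, glmQLFit, glmQLFTest) in R 4.3.3, with Benjamini-Hochberg adjustment over all genes tested. SE is the size of the log2 fold change over the root of F. CPM use TMM-scaled sizes of all 9 libraries. Ratios were tested by exact permutation, because 3 libraries against 3 cannot reach an exact p below 0.1. The code was tested on simulated counts. Identifiers and exons were checked against GENCODE vM21 (54409 identifiers found). Counts are reads without molecular identifiers, so limits on counts cover counting error only.

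The genes and lists were chosen with earlier results of these data known. All 9 genes are named, with the DEGs of the other list, genes whose exons overlap, and the 2 nearest profiles for genes of at least 10 CPM, of which 1 is not reported here. Other genes of the list, such as Ugdh, Gfpt2, Cemip2, Hmmr, Itih5 and Lyve1, and genes with 0 counts were named after their values were seen. Alternatives were DESeq2 1.42.0, other normalizations and count filters, all libraries fitted together, a block for replicate number, no fold-change threshold, and each library left out. Removal of each library's GC trend (lowess, span 0.3) was added after seeing the data.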

Additional observations from a re-analysis of the deposited data

How the results depend on the processing

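Of 469 log2 fold changes of single hyaluronan genes under the alternatives, 406 kept their direction and their call or lack of one (for a pair of stages, the adjusted p and the fold change together), 13 lost a call, 17 gained one, and 33 turned sign, all from values that had not passed the test. The alternative without the fold-change threshold is included in these and in the alternatives cited above for single genes. It repeats the main fit, so its values could not turn sign or lose a call. With no library left out, the sign turned for Has2 in E12.5 vs. E11.5 (−0.0032 by DESeq2, −0.0085 with no filter on low counts) and in the difference of the 2 changes (0.026 with the GC trend removed). It turned for Hyal2 in E12.5 vs. E10.5 (−0.0091 with DESeq2 size factors, −0.0047 by DESeq2, −0.00080 in the fit on all 9 libraries, −0.041 with the GC trend removed), and for Hyal1 in the difference of the 2 changes (−0.015 with no filter on low counts, −0.0076 with the GC trend removed). With each library left out in turn, the log2 fold change of Has2 was −0.021 to 0.19 in E11.5 vs. E10.5, −0.12 to 0.12 in E12.5 vs. E11.5, −0.040 to 0.21 in E12.5 vs. E10.5 and −0.21 to 0.067 in the difference of the 2 changes. That of Hyal1 was −0.58 to 0.10 in E11.5 vs. E10.5 and −0.45 to 0.34 in the difference of the 2 changes. Hyal2 had −0.13 to 0.095 and Cemip −0.47 to 0.31 in E12.5 vs. E10.5, and Tnfaip6 −0.19 to 0.012 and Vcan −0.27 to 0.12 in E12.5 vs. E11.5. The difference of the log2 Has2 to Hyal2 ratio between E12.5 and E10.5 was 0.06 and ranged from −0.13 to 0.34.

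The number of hyaluronan DEGs in E11.5 vs. E10.5 was 1, and 3 without the fold-change threshold, 0 with at least 10 counts in every library (where Cemip is not tested) and 0 to 2 with a library left out. In E12.5 vs. E11.5 it was 3, and 1 to 3 with a library left out, and in E12.5 vs. E10.5 it was 2, and 1 to 2. The DEGs of the other list in E11.5 vs. E10.5 were 5, and 1 to 4 with a library left out. The number of hyaluronan genes whose 2 changes differed was 0, and 1 with DESeq2 size factors or upper quartile normalization, 2 with no filter on low counts or with the GC trend removed, and 0 to 3 with a library left out. The deviations of same-numbered libraries from their stage means had correlations of −0.15 to 0.22, and those of differently numbered libraries −0.22 to 0.22. In E12.5 vs. E10.5 the same-numbered values were 0.18, 0.07 and 0.22, and the others −0.22 to 0.15. With 3 libraries per stage, these values cannot decide whether the numbers pair libraries. With the replicate number as block, 0 hyaluronan DEGs were found in E11.5 vs. E10.5, the genes whose 2 changes differed were 2, and the sign of Hyal1 in that difference turned to −0.12. Why these values moved was not tested. Depth limits the results on Has1 and Cemip most, with 1 to 25 and 4 to 55 counts per library.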
